A study of Mus musculus with 24 samples.

Results

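The comparison described here is that of IFNγ-treated with control X-GFP–high cells at day 7 of reprogramming, over every gene with a mean above 10 normalized counts in their 4 libraries, which were 15598 of the 37315 genes in the table. RNA was sequenced from 2 libraries of each group, out of 24 libraries and 12 populations in the series. The cells came from PaX, a female ESC line with 129S1/SvImJ and CAST/EiJ genomes, in which the X chromosome of M. musculus origin (X mus) carries GFP in Hprt and a truncated Tsix, so that X mus is the one that is inactivated. A doxycycline-inducible cassette of Myc, Klf4, Oct4 and Sox2, with its transactivator in the Sp3 locus, was present in all cells. The line also carries a pluripotency reporter, RFP under the Nanog promoter. NPCs made from this line were reprogrammed on irradiated male mouse embryonic fibroblast feeders with doxycycline, LIF and ascorbic acid, and control and IFNγ-treated cells shared all of these. The treated cells alone received IFNγ (10 ng/ml), starting at day 0 and ending at day 5, so that the cells sorted at day 7 had been without it since then. SSEA1-positive cells with high X-GFP were sorted in both arms, and all values thus describe cells that had already switched the reporter back on. The comparison addresses whether the early treatment had left these cells with a different transcriptome.

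IFNγ binds a surface receptor that activates the kinases JAK1 and JAK2. Factors downstream bind GAS elements, and IRF1, an early target, acts through ISRE elements of genes for antigen presentation and for GTPases of cell-autonomous immunity. In reprogramming to pluripotency, cells first gain an epithelial character and later the naive network around Nanog, Esrrb and Zfp42. Reactivation of the silent X chromosome, with loss of the noncoding RNA Xist, accompanies the last step.

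The reads counted on genes numbered 24746109 to 27922209 in the 4 libraries. Libraries of 1 group differed by more than counting error, since chi-square divided by its degrees of freedom was 4.39 for the control and 13.6 for the IFNγ-treated pair. The label was checked against markers. Summed over the 21 naive pluripotency genes, the control libraries held 144505 and 147077 normalized counts and the IFNγ-treated libraries 181239 and 167854, against 908 and 1020 in NPCs. The 20 neural progenitor genes summed to 4598 and 4471 in the control and 3801 and 4021 with IFNγ, against 79457 and 74139 in NPCs and 2446 and 2558 in ESCs. The neural markers Fabp7 and Olig2 were at 2.06 or less, but others of the list were expressed. Nes was at 1552 and 1493 in the control and 655 and 688 with IFNγ, with an ESC mean of 589. Slc1a3 was at 500 and 528 and then 705 and 755, with an ESC mean of 176. The Y-linked genes, which the male feeders carry and the female line does not, summed to 2.06 and 4.27 in the control and to 4.57 and 2.31 with IFNγ, and Kdm5d was at 0 throughout.

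With IFNγ, 2830 genes were higher (18.1% of those tested) and 3175 were lower (20.4%), by limma on log2(normalized count + 1) at an adjusted p under 0.1, together 38.5%. A log2 fold change of at least 1 was reached by 220 of the higher genes (1.41% of those tested) and by 851 of the lower genes (5.46%), so the decreases were larger. At a log2 fold change of at least 2 the numbers were 9 and 237. The median over all genes tested was 0.03. Both IFNγ-treated libraries lay above both controls in 2825 of the genes called higher, and below both in all 3175 called lower. With 2 libraries a group, a call mostly goes with such separation, and its share over all genes tested was not counted. These counts therefore add no support to the calls. Without control replicate 1 the counts were 929 higher and 1770 lower, and without control replicate 2 the higher genes numbered 1789. Values below are normalized counts in the order of replicates 1 and 2, and each log2 fold change is IFNγ over control on the log2(normalized count + 1) scale with its SE. In a sorted population, fewer cells of a type and less RNA per cell cannot be told apart.

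Among called genes where 1 group averaged 100 or more normalized counts and the libraries were apart, leaving out predicted-gene and RIKEN names, the 6 with the largest decreases were genes that ESCs hold at low levels. Dcn (chr10:97479609-97518143), which encodes the matrix proteoglycan decorin, went from 2176 and 1668 to 41.1 and 119 (log2 fold change -4.74 ± 0.34, adjusted p = 2.21e-06) and averaged 0.476 in ESCs. Vsig8, a membrane protein of the immunoglobulin superfamily, went from 346 and 249 to 11.4 and 23.1 (log2 fold change -4.09 ± 0.30, adjusted p = 2.74e-06). The imprinted, retrotransposon-derived Rtl1 overlaps an antisense transcript, and whether the counting used strand is not given in the sources used here. It went from 283 and 294 to 15.99 and 27.7 (log2 fold change -3.71 ± 0.25, adjusted p = 1.81e-06). In all 3 genes the lower control library lay far above the higher IFNγ-treated library, though the limits required the libraries to be apart. Ugt1a6a, a glucuronosyltransferase whose last exons are shared with the other genes of its cluster, went from 143 and 144 to 5.71 and 17.3 (log2 fold change -3.71 ± 0.40, adjusted p = 4.08e-05). Sprr1a, a protein of the cornified envelope of keratinocytes, went from 132 and 95.0 to 10.3 and 5.78 (log2 fold change -3.69 ± 0.33, adjusted p = 1.23e-05). Prss32, a serine protease, went from 151 and 107 to 6.85 and 11.6 (log2 fold change -3.69 ± 0.32, adjusted p = 9.29e-06). ESC means of these 6 genes ranged from 0 for Sprr1a to 5.80 for Vsig8.

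Under the same limits the largest increases were smaller and included 2 germline genes. Tnc, the matrix glycoprotein tenascin C, went from 45.4 and 23.5 to 195 and 70.5 (log2 fold change 1.81 ± 0.42, adjusted p = 0.00689), with the IFNγ-treated libraries well apart from each other but both above the controls. Tex11 (chrX:100838648-101059667), an X-linked gene of meiotic recombination, went from 52.6 and 72.6 to 211 and 196 (log2 fold change 1.71 ± 0.20, adjusted p = 8.14e-05). Mael (chr1:166201201-166238747), a component of the piRNA pathway that silences transposons, went from 210.4 and 193 to 612 and 613 (log2 fold change 1.598 ± 0.12, adjusted p = 2.42e-06). The Mael values with IFNγ were above the ESC mean of 297, while those of Tex11 were below its ESC mean of 1199. Slc5a4b, of the sodium-glucose transporter family, went from 46.4 and 37.4 to 130.2 and 119 (log2 fold change 1.56 ± 0.22, adjusted p = 2.84e-04). Ccdc3, which encodes a secreted coiled-coil protein, went from 63.9 and 89.7 to 194 and 232 (log2 fold change 1.48 ± 0.20, adjusted p = 2.46e-04). Jam3, a junctional adhesion molecule, went from 66.0 and 84.3 to 183 and 210.3 (log2 fold change 1.38 ± 0.19, adjusted p = 2.51e-04). For all 6, both IFNγ-treated libraries lay above both controls, which the limits required.

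**Figure D1:**
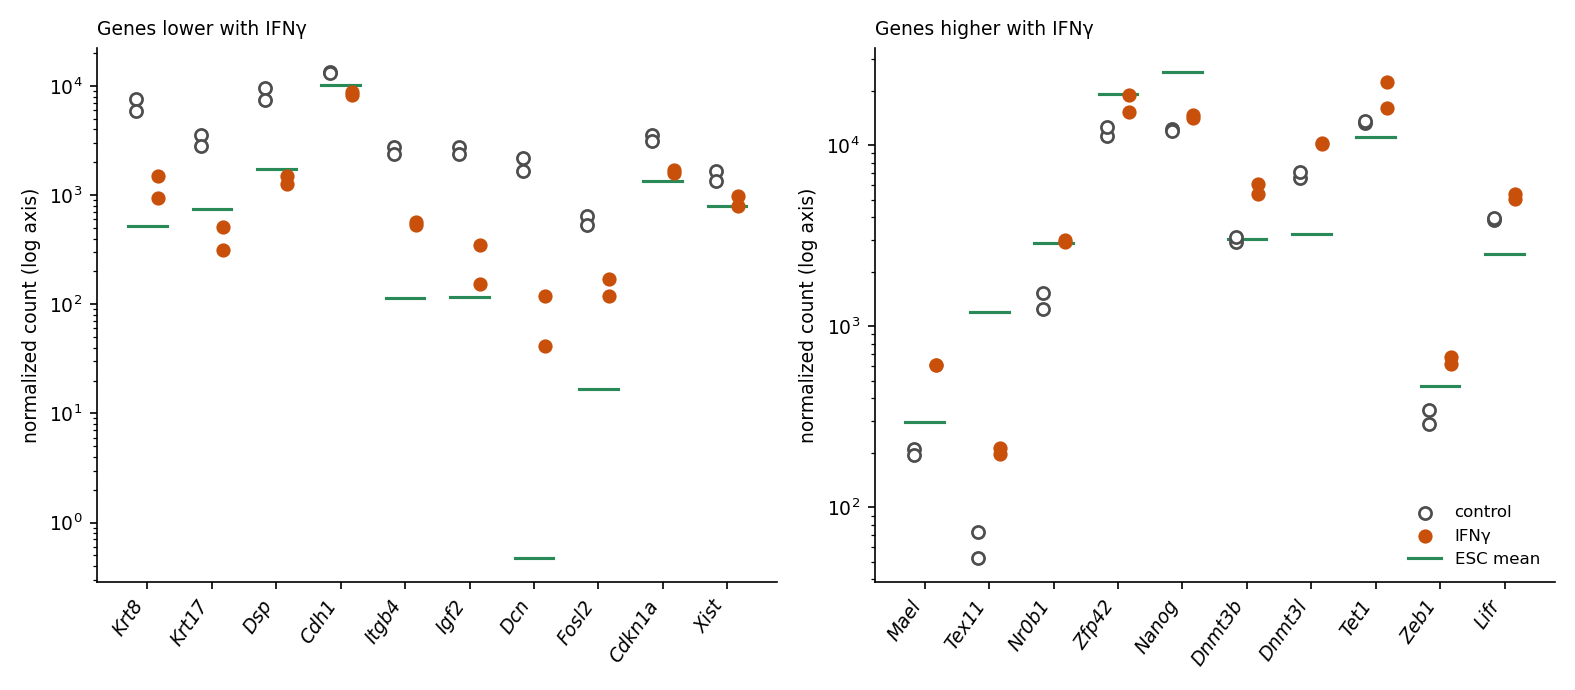
Normalized counts on a log axis of 10 genes called lower (left) and 10 called higher (right) with IFNγ in X-GFP–high cells at day 7. Open circles are the 2 control libraries, filled circles the 2 IFNγ-treated libraries and bars the mean of the 2 ESC libraries. Dcn, Krt8 and Igf2 moved from above 1000 to below that value in 5 of the 6 IFNγ-treated points, and Nanog stayed under its ESC mean of 25331 in both groups.

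Naive pluripotency genes were mostly higher, by modest amounts. Of 21 members tested, 13 were called higher (61.9%) and 1 lower, with a median log2 fold change of 0.25. The largest increases were those of Gbx2, a homeobox factor downstream of LIF, from 43.3 and 48.0 to 111 and 128 (log2 fold change 1.37 ± 0.21, adjusted p = 5.67e-04), and of the X-linked Nr0b1, an orphan nuclear receptor, from 1239 and 1519 to 2904 and 2999 (log2 fold change 1.10 ± 0.09, adjusted p = 7.65e-06). Zfp42, also called Rex1, a zinc finger marker of the naive state, went from 11186 and 12537 to 15277 and 18949.8 (log2 fold change 0.52 ± 0.10, adjusted p = 0.00204). With IFNγ the 2 Nr0b1 values lay just above the ESC mean of 2862, and the Zfp42 values below the ESC mean of 19111. Esrrb, an orphan nuclear receptor of the naive network, went from 13773 and 14537 to 17843 and 17142 (log2 fold change 0.31 ± 0.07, adjusted p = 0.00649). Nanog (chr6:122707489-122714633), a core homeobox factor, went from 12268 and 11903 to 14755 and 14120.2 (log2 fold change 0.26 ± 0.07, adjusted p = 0.014), with an ESC mean of 25331. The exception was Dppa3 (chr6:122626410-122630272), also called Stella, a maternal factor that protects the early embryo's methylation, which went from 1256 and 1178 to 824 and 876 (log2 fold change -0.52 ± 0.09, adjusted p = 8.39e-04). Both Dppa3 values with IFNγ lay below both controls, and the controls were themselves below the ESC mean of 1760.3. The count of 13 was 6 without control replicate 1 and 8 without control replicate 2, and the count of 1 lower was 2 without either IFNγ-treated replicate. Nanog was not called without control replicate 1 (log2 fold change 0.28) or 2 (0.23), nor was Esrrb without control replicate 1 (0.27).

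Genes of pluripotency that are not restricted to the naive state went both ways. Of 16 tested, 9 were higher (56.3%) and 3 lower, with a median of 0.45. Dppa2, a chromatin factor of early embryonic genes, went from 641 and 735 to 1073 and 1174 (log2 fold change 0.71 ± 0.10, adjusted p = 2.51e-04). The largest decreases were in surface proteins. Podxl, the sialomucin podocalyxin, went from 8245 and 7428 to 3275 and 3640.4 (log2 fold change -1.18 ± 0.08, adjusted p = 1.36e-06), and the adhesion molecule Epcam from 4938 and 4561 to 3516 and 3163 (log2 fold change -0.51 ± 0.08, adjusted p = 4.47e-04). With IFNγ, Podxl and Epcam thus lay closer to their ESC means of 1033 and 2539 than the controls did. Of the 4 factors of the cassette, whose transcripts cannot be told apart from those of the endogenous genes in these counts, Sox2 went from 10874 and 12024 to 13738 and 13364 (log2 fold change 0.24 ± 0.07, adjusted p = 0.0242), and Myc from 3627 and 3806 to 2335 and 2981 (log2 fold change -0.49 ± 0.10, adjusted p = 0.0032). Myc was at 107 in ESCs, which had no doxycycline. Pou5f1 and Klf4 did not pass the threshold. Without control replicate 1, Sox2 was not called (log2 fold change 0.17) and no cassette factor was called higher, and without IFNγ-treated replicate 2 the count was 2.

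Formative and primed pluripotency genes had 9 of 17 members called higher (52.9%) and 2 lower, with a median of 0.34, beside 18.1 and 20.4% of all genes. Etv4, an ETS factor downstream of FGF, went from 691 and 608 to 815 and 1194 (log2 fold change 0.60 ± 0.15, adjusted p = 0.00951), and Sox4, a SOX factor, from 342 and 385 to 519 and 588 (log2 fold change 0.60 ± 0.12, adjusted p = 0.00242). The latter remained below the ESC mean of 838. Lef1, a factor of the WNT pathway, went from 448 and 492 to 163 and 188 (log2 fold change -1.41 ± 0.13, adjusted p = 1.66e-05), and Lefty1, an inhibitor of Nodal signaling, from 1361 and 1899 to 1073 and 1329 (log2 fold change -0.43 ± 0.14, adjusted p = 0.0369). ESCs held 20.7 of Lef1 and 6033 of Lefty1, so the decrease of the former was toward and that of the latter away from the ESC level. The 9 became 5 without control replicate 1, and without control replicate 2 Lefty1 was not called (log2 fold change -0.19), which left 1 lower gene.

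LIF signals through LIFR and gp130 (Il6st) to JAK kinases and STAT3, and supports naive pluripotency. In this pathway 2 of 14 members were higher (14.3%) and 4 lower (28.6%), with a median of -0.08. The receptor Lifr went from 3849 and 3955 to 5342 and 5065 (log2 fold change 0.41 ± 0.07, adjusted p = 7.53e-04), and Bcl3, a co-regulator of NF-κB, from 264 and 284 to 315 and 369.8 (log2 fold change 0.32 ± 0.13, adjusted p = 0.0873). Lifr was above its ESC mean of 2493 in all 4 libraries. The kinase Jak2 went from 1025 and 885 to 683 and 541 (log2 fold change -0.65 ± 0.12, adjusted p = 0.0019), and Jak1 from 2335 and 2145 to 1798 and 1759 (log2 fold change -0.33 ± 0.07, adjusted p = 0.00619). Stat3 was at 2980.2 and 2902 in the control and 3000.1 and 2783 with IFNγ, and these values overlapped (log2 fold change -0.03 ± 0.07, adjusted p = 0.82). Without IFNγ-treated replicate 2 the Stat3 difference was 0.029. Bcl3 was not called without IFNγ-treated replicate 2 (0.20) or without control replicate 1 (0.27) or 2 (0.37), and Jak1 was not called without control replicate 1 (-0.27), without which 2 genes were lower, and without either control replicate 1 gene was higher.

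Genes of the IFNγ pathway itself were not uniformly higher 2 days after its withdrawal. Of the receptor chains, STATs, IRFs and their regulators, 3 of 12 were higher (25.0%) and 3 lower (25.0%), with a median of 0.06. Irf1, a transcription factor of the early response, went from 869 and 969 to 1119.6 and 1171 (log2 fold change 0.32 ± 0.09, adjusted p = 0.0175). Both IFNγ-treated libraries were above both controls. Ifngr1, the ligand-binding chain of the receptor, went from 306 and 291 to 159.9 and 151 (log2 fold change -0.94 ± 0.14, adjusted p = 4.18e-04), and Irf2, which antagonizes Irf1 at shared sites, from 126 and 87.5 to 22.8 and 31.2 (log2 fold change -1.93 ± 0.27, adjusted p = 2.80e-04). The decreases of these 2 genes were larger than the increase of Irf1, which was not called without control replicate 1 (log2 fold change 0.24). The 3 higher genes were 1 without either control replicate and 5 without IFNγ-treated replicate 2.

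Guanylate-binding proteins and immunity-related GTPases, which attack vacuoles of intracellular microbes, had the highest median of the lists. The table held 12 members, of which 10 were tested, and 7 of these were higher (70.0%) and 1 lower, with a median of 0.63. Irgm1 (chr11:48861968-48871683), a regulatory member of the immunity-related GTPases, went from 81.5 and 66.2 to 109 and 153 (log2 fold change 0.80 ± 0.22, adjusted p = 0.0169), and Gbp9 from 106 and 119.5 to 170.2 and 151 (log2 fold change 0.51 ± 0.17, adjusted p = 0.0427). Gbp7 went from 162 and 130.2 to 50.3 and 113 (log2 fold change -0.93 ± 0.31, adjusted p = 0.0377). Gbp2, a common readout of IFNγ, was at 107 and 107 in the control and 111 and 147 with IFNγ, and did not pass the threshold (log2 fold change 0.25 ± 0.19, adjusted p = 0.353). Its ESC mean was 1.93. The member with the largest difference, Tgtp2, a T cell-specific GTPase chosen here after its values were seen, was at 1.03 and 2.13 in the control, which is 3 reads in all, and at 22.8 and 23.1 with IFNγ. Members of both families have close paralogs, between which reads can be split. The 7 higher genes were 3 without control replicate 1. Gbp9 was not called without control replicate 1 (0.42) or IFNγ-treated replicate 1 (0.42), Irgm1 not without control replicate 2 (0.65), and Gbp7 not without control replicate 1 (-0.78) or IFNγ-treated replicate 1 (-0.36), without which Gbp2 was called (0.45).

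Among class I antigen presentation genes, 8 of 16 were higher (50.0%) and 2 lower, with a median of 0.27. Tap1 (chr17:34187553-34197225), a subunit of the peptide transporter, went from 158 and 159 to 239.9 and 232 (log2 fold change 0.57 ± 0.14, adjusted p = 0.0107), and H2-Q4, a nonclassical heavy chain with close paralogs, from 83.5 and 97.1 to 119 and 142 (log2 fold change 0.52 ± 0.19, adjusted p = 0.057). Psmb9, an immunoproteasome subunit chosen after its values were seen, went from 18.6 and 20.3 to 59.4 and 61.3 (log2 fold change 1.59 ± 0.27, adjusted p = 0.00108). The light chain went the other way. B2m, the partner of all class I heavy chains, went from 1737 and 1441 to 629 and 942 (log2 fold change -1.04 ± 0.15, adjusted p = 4.27e-04), and the aminopeptidase Erap1 from 295 and 286 to 220.5 and 247 (log2 fold change -0.31 ± 0.13, adjusted p = 0.0946). The classical heavy chains H2-K1 and H2-D1, also chosen afterwards, had log2 fold changes of 0.40 and 0.43, so heavy and light chain changed in opposite directions. H2-Q4 was not called without control replicate 1 (0.42) or 2 (0.63) or IFNγ-treated replicate 2 (0.40), nor Erap1 without control replicate 1 (-0.29) or 2 (-0.34) or IFNγ-treated replicate 1 (-0.23), so that B2m was then the only lower gene.

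Of 28 other interferon-stimulated genes, 20 were tested, and 6 were higher (30.0%) and 4 lower (20%), with a median of 0.07. Parp14, an ADP-ribosyltransferase, went from 199 and 186 to 328 and 387 (log2 fold change 0.89 ± 0.14, adjusted p = 5.90e-04), and Oas1a, of the family that senses double-stranded RNA, from 447 and 441 to 650.1 and 602 (log2 fold change 0.49 ± 0.10, adjusted p = 0.00351). Ifi35 went from 185 and 218 to 102 and 125 (log2 fold change -0.83 ± 0.18, adjusted p = 0.00433), and Bst2, the antiviral surface protein tetherin, from 1066 and 977 to 908 and 819 (log2 fold change -0.24 ± 0.09, adjusted p = 0.0661). The chemokine gene Cxcl9, a strong IFNγ target, was at 0 in all 4 libraries and thus not detected at this depth. Bst2 was not called without control replicate 1 (-0.18) or 2 (-0.31) or IFNγ-treated replicate 2 (-0.17), and the 4 lower genes were 1, 2 and 2 without these.

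Promoter windows are shown for Irgm1 and Tap1, which by the rule for named genes had the largest increases of the GTPase and class I lists at 100 or more normalized counts. The windows run from 250 bases before to 50 after the start of the gene in RefSeq on GRCm38.p6, 5′ to 3′ on the strand of the gene. Capitals mark matches, on either strand, to the ISRE core, which is GAAA, any 2 bases and GAAA again, or to the GAS motif TTCNNNGAA, which reads the same on both strands.
Irgm1, chr11:48871371-48871670, minus strand: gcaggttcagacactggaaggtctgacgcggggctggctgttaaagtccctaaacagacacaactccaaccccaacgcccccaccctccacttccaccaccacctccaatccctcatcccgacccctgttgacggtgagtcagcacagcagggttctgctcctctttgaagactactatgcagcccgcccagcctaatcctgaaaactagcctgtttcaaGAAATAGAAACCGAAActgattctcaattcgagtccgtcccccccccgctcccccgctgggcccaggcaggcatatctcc
Tap1, chr17:34187306-34187605, plus strand: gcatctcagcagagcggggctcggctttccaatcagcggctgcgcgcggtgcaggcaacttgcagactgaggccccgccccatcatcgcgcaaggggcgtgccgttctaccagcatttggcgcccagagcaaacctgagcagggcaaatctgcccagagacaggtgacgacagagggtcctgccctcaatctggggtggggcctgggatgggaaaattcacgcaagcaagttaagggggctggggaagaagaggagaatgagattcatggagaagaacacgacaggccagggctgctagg
The Irgm1 window held 2 overlapping ISRE matches, which start at -30 and -24 from the RefSeq start of the gene, and no GAS match. The Tap1 window held neither. The Irgm1 window lies wholly inside the gene span given above, which is that of GENCODE. Over all 32851 windows of 300 bases, 8.30% held the GAS motif and 3.44% the ISRE core. Of the 45 tested genes of the interferon lists with a window, 15 held a GAS and 20 an ISRE match. Among the 17 called higher, 7 held a GAS and 7 an ISRE match, among the 10 called lower, 5 and 6, and among the 18 not called, 3 and 7. A match is a description of letters and not a site.

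Genes that responded at day 2 were then looked up in X-GFP–high cells. By the study's methods, the day 2 cells were sorted only to remove stained feeders, with no selection for SSEA1 or X-GFP given. The comparison is thus between differently selected populations and does not track 1 population over time. In the day 2 libraries, which share none with the X-GFP–high comparison, 301 genes were higher with IFNγ by a log2 fold change of at least 1 (1.92% of those tested) and 75 were lower (0.478%). At day 7, 191 of the 301 were tested, and 54 were higher (28.3%) and 37 lower (19.4%), with a median of 0.14. Of all genes, 18.1% were higher and 20.4% lower, so the lower share was close to that of all genes. Among the 37, chosen after their values were seen, are Ly6a, the surface antigen Sca-1, which went from 1502 and 1114 to 207 and 399 (log2 fold change -2.17 ± 0.23, adjusted p = 4.50e-05), Nos2, the inducible nitric oxide synthase, from 114 and 105 to 20.6 and 20.8 (log2 fold change -2.35 ± 0.24, adjusted p = 3.04e-05), and Il12rb1, a cytokine receptor chain, from 185 and 146 to 41.1 and 38.1 (log2 fold change -2.03 ± 0.21, adjusted p = 3.44e-05). In each of the 3 both IFNγ-treated libraries were far below either control. Of the 75 genes that were lower at day 2, 47 were tested, and 9 were higher and 20 lower. The 54 were 30, the 37 were 24 and the 9 were 5 without control replicate 1.

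Epithelial genes were mostly lower. Of 17 tested, 15 were lower (88.2%) and 1 higher, with a median of -1.07. Dsp, the desmosomal plaque protein desmoplakin, went from 9605 and 7502 to 1270.4 and 1502 (log2 fold change -2.62 ± 0.11, adjusted p = 2.35e-07), and Krt8 (chr15:101996698-102004482), a keratin of simple epithelia, from 7520.5 and 5869.7 to 946 and 1486 (log2 fold change -2.49 ± 0.17, adjusted p = 1.61e-06). Cdh1, which encodes E-cadherin, went from 13416 and 13048 to 8291 and 8856 (log2 fold change -0.63 ± 0.07, adjusted p = 4.75e-05). The Dsp and Cdh1 values with IFNγ lay below the ESC means of 1741 and 10219, and those of Krt8 above its mean of 521. The gene that rose was Grhl2, a transcription factor of epithelial identity, which went from 727 and 696 to 919.7 and 888 (log2 fold change 0.34 ± 0.09, adjusted p = 0.0118) and was not called without control replicate 2 (0.31).

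All 10 tested genes of the epidermal list were lower, with a median of -2.17, beside 20.4% of all genes. Sprr1a, given above, had the largest decrease. Krtdap, a secreted protein of differentiating keratinocytes, went from 758 and 718 to 48.0 and 148 (log2 fold change -3.11 ± 0.36, adjusted p = 6.62e-05). Summed over the 14 members, control libraries held 11910 and 9638, IFNγ-treated libraries 2192 and 2994 and ESCs 2949 and 2378 normalized counts, so the sums with IFNγ spanned those of ESCs. Trp63, the master factor of stratified epithelia, was at no more than 6.93 normalized counts in any of the 4 libraries, and Krt5 at no more than 14.4. The share of these transcripts in the decreases of the epithelial list was not tested.

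Of 9 tested trophoblast genes 6 were lower (66.7%) and 1 higher, with a median of -0.66. Krt7, a keratin of trophoblast and other simple epithelia, went from 321 and 286 to 136 and 117 (log2 fold change -1.26 ± 0.15, adjusted p = 1.03e-04), and Plet1, a surface protein of trophoblast progenitors, from 1006 and 867 to 542 and 512 (log2 fold change -0.83 ± 0.10, adjusted p = 1.12e-04). Cdx2, a defining trophoblast factor, was at no more than 4.62 normalized counts in any library, and other epithelia express both named genes too. The lower genes were 3 without control replicate 1, and without either control replicate no gene was higher.

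**Figure D2:**
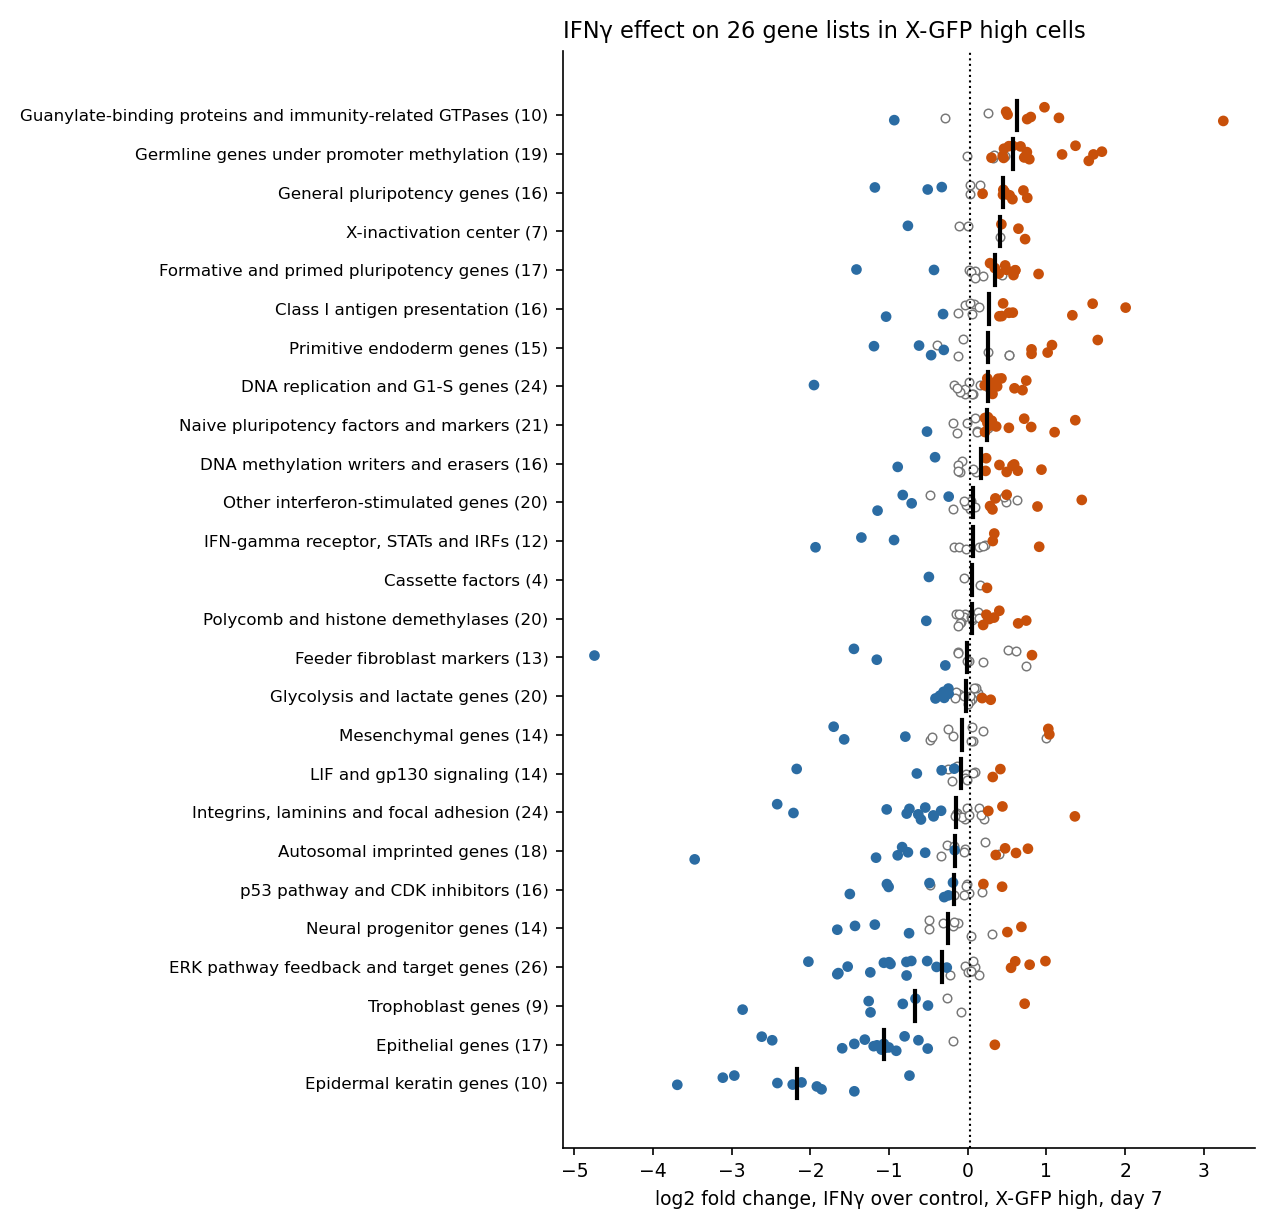
Log2 fold change of IFNγ over control in X-GFP–high cells (horizontal axis) for the tested members of 26 gene lists, with the number tested in brackets, sorted by median. Filled points are called lower or higher, open points are not called, the bar is the median of the list and the dotted line the median of all genes tested, 0.03. All 10 epidermal genes and 15 of 17 epithelial genes are filled on the left, and 15 of 19 germline genes on the right.

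Of 14 mesenchymal genes tested, 2 were higher (14.3%) and 3 lower (21.4%), with a median of -0.07. Zeb1, a repressor of E-cadherin, went from 288 and 346 to 676 and 622 (log2 fold change 1.04 ± 0.12, adjusted p = 7.21e-05), and Vim, the intermediate filament vimentin, from 439 and 492 to 873 and 1026 (log2 fold change 1.02 ± 0.11, adjusted p = 3.93e-05). Vim stayed below its ESC mean of 2591 and far below that of NPCs, 40543. Tgfbr2, the type 2 receptor of TGFβ, went from 231 and 181 to 113 and 123 (log2 fold change -0.79 ± 0.17, adjusted p = 0.005), and was not called without control replicate 1 (-0.62).

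Integrins, laminins and proteins of focal adhesions had 11 of 24 members lower (45.8%) and 3 higher, with a median of -0.15. Itgb4, the β chain of the hemidesmosome, went from 2737 and 2391 to 531 and 569.8 (log2 fold change -2.22 ± 0.09, adjusted p = 2.35e-07), and Itgb3, a β chain of matrix receptors, from 474 and 492 to 229.6 and 243 (log2 fold change -1.03 ± 0.12, adjusted p = 6.45e-05). Both IFNγ-treated libraries were below both controls in each case, which the rule for named genes required. Lama1, a laminin of embryonic basement membranes, went from 2906 and 2654 to 4127 and 3444 (log2 fold change 0.44 ± 0.09, adjusted p = 0.00334), and the X-linked filamin Flna from 12489 and 12717 to 15135 and 15083 (log2 fold change 0.26 ± 0.07, adjusted p = 0.0113). Flna was not called without control replicate 1 (0.25) or 2 (0.27), and the 3 higher genes were 6 without IFNγ-treated replicate 2.

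Genes downstream of ERK signaling, which drives exit from the naive state, were lower in 14 of 26 cases (53.8%) and higher in 4 (15.4%), with a median of -0.33. Fosl2, a subunit of AP-1, went from 643 and 530.5 to 120.0 and 169.9 (log2 fold change -2.03 ± 0.17, adjusted p = 7.31e-06), and the receptor Egfr from 513 and 454 to 137 and 169 (log2 fold change -1.66 ± 0.14, adjusted p = 9.54e-06). Other members of AP-1 that were called, Fos, Fosl1, Jun and Junb, chosen after their values were seen, had log2 fold changes between -1.64, for Fosl1, and -0.98, for Jun. Feedback inhibitors of the pathway were among those that rose. Spry4 went from 1461 and 1570.2 to 2481 and 3638 (log2 fold change 0.99 ± 0.14, adjusted p = 2.47e-04), and Spry2 from 819.8 and 861 to 1503 and 1399.5 (log2 fold change 0.79 ± 0.08, adjusted p = 3.84e-05). In the control libraries Spry4 was already above its ESC mean of 97.4, and the increase was away from it.

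Genes that write and erase DNA methylation were higher in 8 of 16 cases (50.0%) and lower in 2, with a median of 0.16 and members of both kinds among the higher genes. Dnmt3b (chr2:153649450-153687730), a de novo methyltransferase, went from 2907 and 3098 to 5381 and 6137 (log2 fold change 0.94 ± 0.08, adjusted p = 6.95e-06). Dnmt3l, its catalytically inactive partner, went from 6615 and 7128 to 10218 and 10148 (log2 fold change 0.57 ± 0.07, adjusted p = 9.18e-05). Zfp57, which keeps methylation at imprinted regions, went from 8411 and 8961 to 12994 and 14002 (log2 fold change 0.64 ± 0.07, adjusted p = 5.72e-05). For Dnmt3b and Dnmt3l the values with IFNγ exceeded the ESC means of 3025 and 3241. On the side of removal, Tet1, which oxidizes 5-methylcytosine, went from 13278 and 13593 to 16015 and 22381 (log2 fold change 0.49 ± 0.12, adjusted p = 0.00917). The 3 Gadd45 genes, stress proteins linked to demethylation, divided. Gadd45a went from 548 and 533 to 812 and 815 (log2 fold change 0.59 ± 0.09, adjusted p = 5.90e-04), Gadd45b from 888 and 803 to 748 and 535 (log2 fold change -0.42 ± 0.14, adjusted p = 0.0386) and Gadd45g from 345 and 278 to 212 and 131 (log2 fold change -0.89 ± 0.21, adjusted p = 0.00736). ESC means were 946, 233 and 17.8, so each of the 3 differences was toward the ESC level. Gadd45b was not called without control replicate 1 (-0.34) or IFNγ-treated replicate 2 (-0.17), and without the former 1 gene was lower.

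Germline genes that promoter methylation silences in somatic cells were mostly higher. Of 19 tested, 15 were higher (78.9%) and none lower, with a median of 0.57. Mael and Tex11, given above, had the largest increases among members at 100 or more normalized counts. NPCs averaged at most 3.22 normalized counts of any member, and the sums over the list were 16650 and 17783 in the control, 23887 and 26557 with IFNγ and 29231 and 27164 in ESCs. Zfp42, which is also a naive gene, gives most of these sums. Without IFNγ-treated replicate 1, 1 gene was lower.

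At the X-inactivation center, Xist (chrX:103460366-103483254), the noncoding RNA that coats the inactive X, was lower with IFNγ and went from 1652 and 1357 to 795 and 981 (log2 fold change -0.76 ± 0.12, adjusted p = 5.23e-04), with an ESC mean of 792 and an NPC mean of 10412. Its antisense partner Tsix (chrX:103431517-103484957), which is truncated on X mus, went from 473 and 564 to 827 and 888 (log2 fold change 0.73 ± 0.11, adjusted p = 3.96e-04). The libraries were stranded, but whether the counting used the strand is not given in the sources used here, and reads of 2 overlapping genes could then be assigned to either. Tsx, a transcript of the same region, went from 143 and 181 to 233 and 274 (log2 fold change 0.64 ± 0.16, adjusted p = 0.0117), and was not called without control replicate 1 (0.48). Of 7 members tested, 3 were higher and 1, Xist, lower.

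Of 614 X-linked genes tested, 187 were higher (30.5%) and 68 lower (11.1%), with a median log2 fold change of 0.15, while of 14767 autosomal genes 2608 were higher (17.7%) and 3090 lower (20.9%), with a median of 0.02. The X-linked share of all normalized counts was 3.41 and 3.48% in the control, 3.76 and 3.87% with IFNγ and 4.66 and 4.71% in ESCs. The groups did not overlap. The counts were 77 higher and 32 lower without control replicate 1, and without control replicate 2 the lower genes were 43.

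The proportion of allelic expression from X mus was given for 316 X-linked genes, with 1 value for each gene and population, so no replicate error is known and no test was made. The depth behind these values is unknown. The median was 0.336 in the control and 0.396 with IFNγ, against 0.00107 in NPCs and 0.481 in ESCs. The proportion was higher with IFNγ for 272 genes, lower for 43 and equal for 1, and the median difference was 0.0586. For the 289 genes with a proportion of at most 0.1 in NPCs, the medians were 0.323 and 0.386, and 251 genes were higher and 37 lower. For the 27 genes above 0.1 in NPCs, the medians were 0.444 and 0.472, and 21 were higher and 6 lower. Xist, which the inactive X expresses, is among these and among the 43 lower genes, at 0.995 in the control and 0.989 with IFNγ, and without it 315 genes had a median difference of 0.0589. In X-GFP–medium cells the medians were 0.110 and 0.236. Control X-GFP–high cells thus had a higher median than IFNγ-treated X-GFP–medium cells. The sort selected cells for expression of GFP from X mus itself, in both arms.

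**Figure D3:**
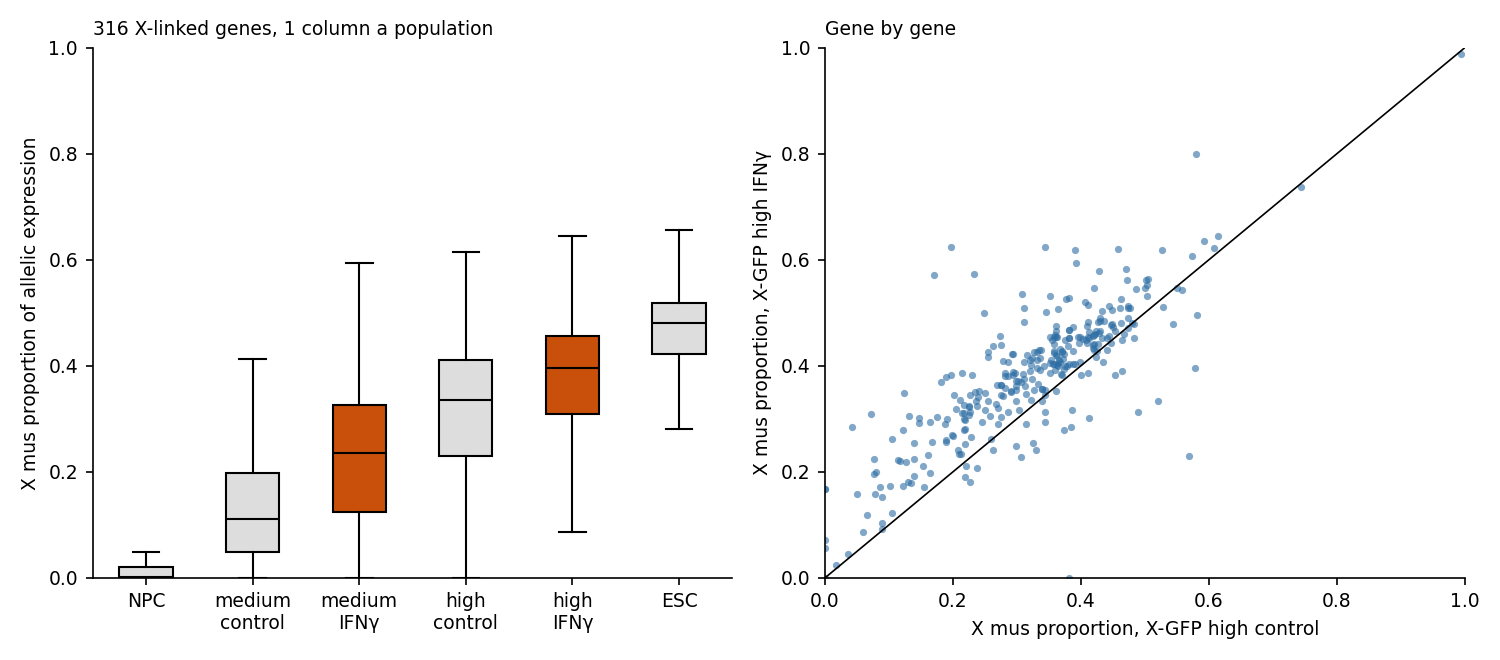
X mus proportion of allelic expression of 316 X-linked genes, from 0 to 1. On the left, boxes give the median and quartiles in 6 populations, with whiskers to the last value within 1.5 interquartile ranges. On the right, each point is a gene, with control X-GFP–high cells on the horizontal and IFNγ-treated on the vertical axis. The median moves from 0.336 to 0.396, and 272 points lie above the diagonal.

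Of 24 DNA replication and G1-S genes, 13 were higher (54.2%) and 1 lower, with a median of 0.25. E2f2, an activator of S phase genes, went from 306 and 291 to 476 and 527 (log2 fold change 0.74 ± 0.11, adjusted p = 5.59e-04), and Ccne1, cyclin E1, from 1906 and 2113 to 2842 and 3722 (log2 fold change 0.70 ± 0.11, adjusted p = 6.30e-04). Ccnd2, cyclin D2, a D-type cyclin that NPCs express at 8642, went from 263 and 249.8 to 43.4 and 98.2 (log2 fold change -1.95 ± 0.29, adjusted p = 4.47e-04). In the list of p53 targets and CDK inhibitors, 7 of 16 were lower (43.8%) and 2 higher, with a median of -0.18. Cdkn1a, the inhibitor p21, went from 3561 and 3146 to 1583 and 1701 (log2 fold change -1.03 ± 0.08, adjusted p = 4.35e-06), and Cdkn2b, the inhibitor p15, from 162 and 144 to 51.4 and 55.5 (log2 fold change -1.50 ± 0.19, adjusted p = 1.64e-04). Trp53, which encodes p53 and activates Cdkn1a, went the other way, from 4059 and 4260.0 to 5371 and 5899.8 (log2 fold change 0.44 ± 0.07, adjusted p = 8.33e-04), as did the apoptosis gene Bax, from 2689 and 2879 to 3154 and 3234 (log2 fold change 0.20 ± 0.07, adjusted p = 0.0503). The 13 were 6 and the 7 were 4 without control replicate 1, 3 replication genes were lower without IFNγ-treated replicate 2, and Bax was not called without control replicate 1 (0.15) or 2 (0.25).

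Among Polycomb proteins and histone demethylases, 7 of 20 were higher (35.0%) and 1 lower, with a median of 0.05. Epop, an accessory protein of Polycomb repressive complex 2, went from 3519 and 3803 to 5444 and 6894 (log2 fold change 0.74 ± 0.10, adjusted p = 1.89e-04), and Jarid2, another, from 7964 and 8046 to 11231 and 13874 (log2 fold change 0.64 ± 0.09, adjusted p = 3.03e-04). The catalytic subunit Ezh1 went from 2828 and 2575 to 2059.8 and 1702 (log2 fold change -0.53 ± 0.09, adjusted p = 0.00142). The 7 were 2 without control replicate 1, and without either IFNγ-treated replicate 2 were lower. Glycolysis and lactate genes were lower in 6 of 20 cases (30.0%) and higher in 2 (10.0%), with a median of -0.02. The aldolase Aldoc went from 2521 and 2326 to 1941 and 1710.4 (log2 fold change -0.41 ± 0.08, adjusted p = 0.00323), and hexokinase 1 (Hk1) from 5909 and 5599 to 4789 and 4224 (log2 fold change -0.35 ± 0.08, adjusted p = 0.0046). Pdk1, which restrains pyruvate dehydrogenase, went from 10536 and 11438 to 13346 and 13535 (log2 fold change 0.29 ± 0.07, adjusted p = 0.00849), and Pgam1, a phosphoglycerate mutase, from 2752 and 2760.3 to 3107 and 3154 (log2 fold change 0.18 ± 0.07, adjusted p = 0.057). Neither of the latter was called without control replicate 1 (0.23 and 0.18), nor Pgam1 without control replicate 2 (0.19), and without control replicate 1 the lower genes were 3. The higher genes were 5 without IFNγ-treated replicate 2.

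Of 18 imprinted genes tested, 4 were higher (22.2%) and 7 lower (38.9%), with a median of -0.17. Igf2 (chr7:142650766-142666816), a growth factor expressed from the paternal allele, went from 2746 and 2378 to 152 and 347 (log2 fold change -3.47 ± 0.26, adjusted p = 3.27e-06), and Sgce, a sarcoglycan, from 701 and 556 to 443 and 276 (log2 fold change -0.83 ± 0.19, adjusted p = 0.00602). Its divergent neighbor Peg10, a retrotransposon-derived gene that is paternally expressed like Sgce, went the other way, from 14699.7 and 13002 to 20176 and 22179 (log2 fold change 0.61 ± 0.08, adjusted p = 2.00e-04), and the adaptor Grb10 went from 177 and 199.6 to 327 and 314 (log2 fold change 0.77 ± 0.14, adjusted p = 0.00138). The higher imprinted genes were 2 without control replicate 1.

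Primitive endoderm genes were higher in 5 of 15 cases (33.3%) and lower in 4 (26.7%), with a median of 0.26. Pdgfra, a surface marker of the lineage, went from 67.0 and 80.1 to 147 and 163 (log2 fold change 1.07 ± 0.19, adjusted p = 0.00134), and the endocytic receptor Lrp2 from 231 and 278 to 475 and 554 (log2 fold change 1.02 ± 0.13, adjusted p = 1.79e-04). Gata4, a defining factor, went from 310.4 and 286 to 219 and 171 (log2 fold change -0.62 ± 0.15, adjusted p = 0.00993), and Sparc, a matrix protein, from 4367 and 3681 to 2934 and 2874 (log2 fold change -0.47 ± 0.08, adjusted p = 0.0015). Gata4 was not called without control replicate 1 (-0.56), without which 3 genes were higher and 2 lower. Neural progenitor genes had 2 of 14 members higher and 4 lower (28.6%). The intermediate filament Nes went from 1552 and 1493 to 655 and 688 (log2 fold change -1.18 ± 0.08, adjusted p = 1.93e-06), where NPCs held 22584. The glutamate transporter Slc1a3 went from 500.1 and 528 to 705 and 755 (log2 fold change 0.50 ± 0.10, adjusted p = 0.00245), and Id3, an inhibitor of differentiation factors, from 564 and 525 to 872 and 876 (log2 fold change 0.68 ± 0.09, adjusted p = 2.38e-04). The lower genes were 2 without control replicate 1.

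Fibroblast markers, listed for the feeders, had 1 of 13 tested members higher and 4 lower (30.8%), with a median of -0.01. Their sums were 5276 and 4684 in the control and 2910 and 2755 with IFNγ, and Dcn was the largest part of this difference. How far feeder RNA takes part in the decrease of Dcn was not tested. Col6a1, a chain of collagen VI, went from 125 and 126 to 43.4 and 47.4 (log2 fold change -1.45 ± 0.20, adjusted p = 3.12e-04), and the surface glycoprotein Thy1 from 106 and 128 to 168 and 253 (log2 fold change 0.82 ± 0.20, adjusted p = 0.0109). Col1a1 and Col1a2, the chains of collagen I and defining fibroblast genes, chosen afterwards, were at 61.9 and 65.1 and at 60.8 and 63.0 in the control and at 70.8 and 75.1 and at 104 and 75.1 with IFNγ, and Lum and Dpt at 3.20 or less. NPCs express many of these genes too, with sums of 44107 and 63764. Without either IFNγ-treated replicate, 2 genes of this list were higher. The genes of the 2-cell-like state were all below the filter and not tested, with sums of 43.3 and 43.8 in the control and 68.5 and 62.4 with IFNγ.

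Genes were next grouped by their direction toward ESCs. In a comparison that uses none of these libraries, ESCs against control X-GFP–medium cells, 2328 genes were higher in ESCs (15.0% of those tested) and 3301 lower (21.3%), by a log2 fold change of at least 1. Of the first, 2210 were tested in X-GFP–high cells, and 1177 were higher with IFNγ (53.3%) and 10 lower (0.452%), with a median of 0.34. Of the second, 3151 were tested, and 106 were higher (3.36%) and 1925 lower (61.1%), with a median of -0.52. IFNγ-treated X-GFP–high cells thus differed from control X-GFP–high cells mostly in the direction in which ESCs differ from control X-GFP–medium cells. The study's methods describe ESC culture on gelatin with serum and LIF, and list no feeders, doxycycline or ascorbic acid for it. The X-GFP–medium cells had all of the latter. The share of culture in these lists was not tested. Single genes can also be placed between the X-GFP–high controls and the ESC mean, which is not the direction that defines these lists. By that measure some named genes moved away from the ESC mean. Dppa3 and Lefty1 fell although ESCs held more of them than the X-GFP–high controls did. Others were above their ESC means already in the X-GFP–high controls and rose further. Among these were Spry4, Dnmt3l, Sox2, Lifr, Etv4, Spry2, Grhl2, Id3, Slc1a3, Irf1 and Tap1. Without control replicate 1, the 1177 were 474 and the 106 were 64, without control replicate 2 the 106 were 63 and the 10 were 3, and without IFNγ-treated replicate 2 the 10 were 24.

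**Figure D4:**
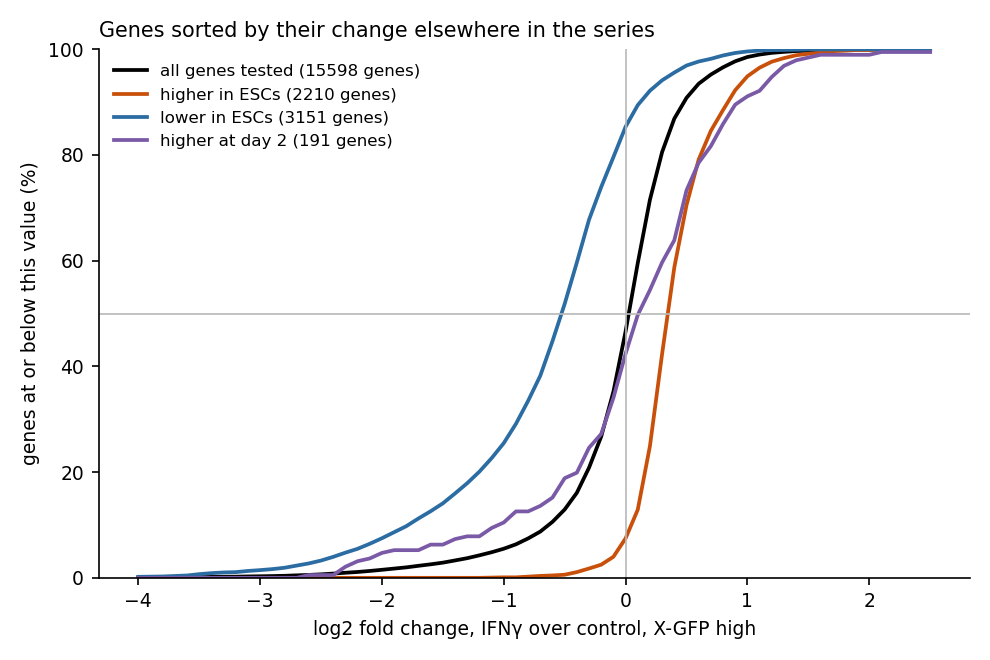
Cumulative share of genes (vertical axis, percent) at or below each log2 fold change of IFNγ over control in X-GFP–high cells (horizontal axis). Lines are all 15598 genes tested, 2210 genes higher and 3151 lower in ESCs than in control X-GFP–medium cells, and 191 genes higher with IFNγ at day 2. The medians are 0.03, 0.34, -0.52 and 0.14, and the day 2 line crosses that of all genes.

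The effect in X-GFP–high cells was compared with that in X-GFP–medium cells of the same day, which had the same treatment and are earlier in X reactivation. There, 5193 genes were higher (33.3% of 15595 tested) and 4621 lower (29.6%). In a test of the difference between the effects over the 8 libraries, 736 of 15623 genes had a larger log2 effect in X-GFP–high cells (4.71%) and 1259 a smaller one (8.06%), with a median difference over all genes of -0.04. Effects were compared with their sign, so a weaker decrease in X-GFP–high cells counts as a larger log2 effect. A stronger decrease counts as a smaller one. Differences between replicates 1 and 2 in X-GFP–high and in X-GFP–medium cells had a correlation over genes of 0.104 in the control and 0.307 with IFNγ. Between the treatments, in X-GFP–medium cells, it was 0.0995, so the control value does not stand out. With a replicate block within each treatment, added after seeing the data, the counts were 1923 and 2843. Of the 21 naive genes, 15 had a smaller and none a larger effect in X-GFP–high cells, and the medians of the effects were 0.25 in X-GFP–high and 0.81 in X-GFP–medium cells. The effect on Zfp42 differed by -0.63 ± 0.15 (adjusted p = 0.0317), which was not called without control replicate 2 of the X-GFP–high or control replicate 1 of the X-GFP–medium cells, and that on Esrrb by -0.53 ± 0.08 (adjusted p = 0.00681). Dppa3 turned in direction, with a log2 fold change of 0.37 in X-GFP–medium cells, and the difference was -0.89 ± 0.10 (adjusted p = 0.00289). Its values in X-GFP–medium cells were 1256 and 1234 in the control and 1683 and 1543 with IFNγ.

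**Figure D5:**
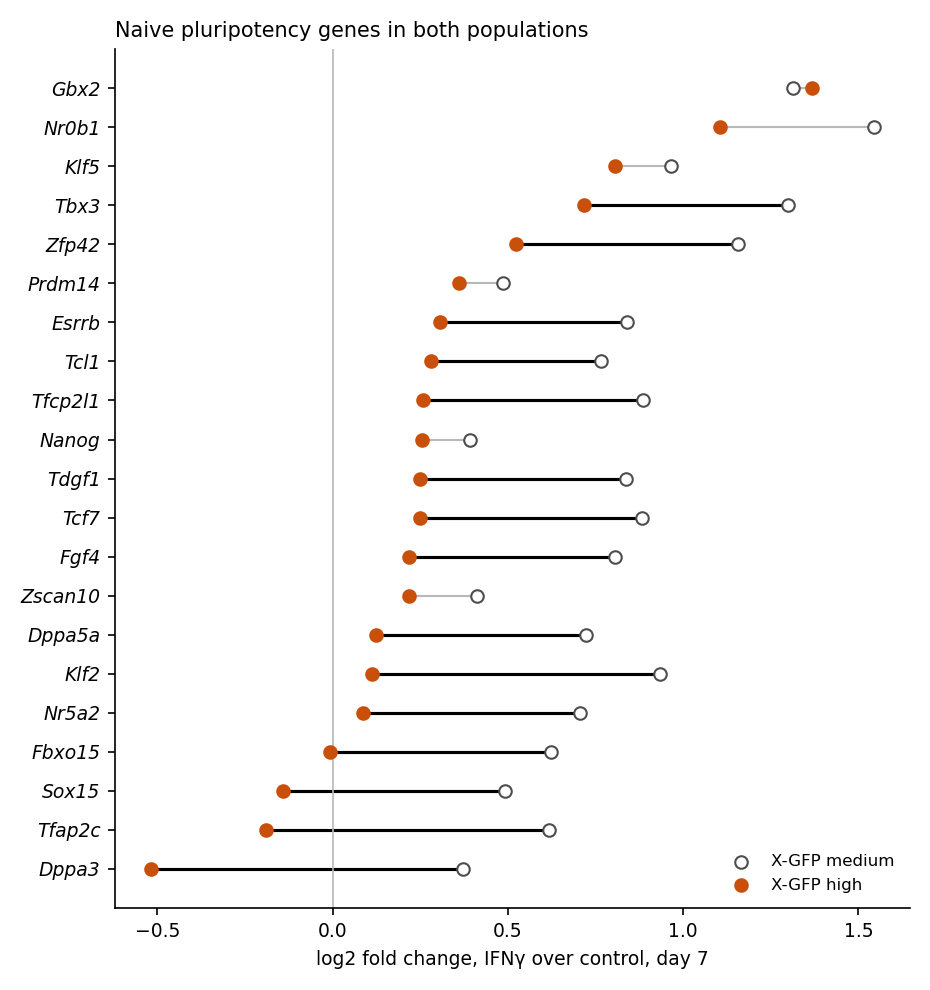
Log2 fold change of IFNγ over control (horizontal axis) of the 21 naive pluripotency genes in X-GFP–medium cells (open circles) and X-GFP–high cells (filled circles). Thick lines join the points where the difference between the populations was called, which holds for 15 genes, all with the X-GFP–high point on the left. Gbx2 is the only gene with its X-GFP–high point on the right.

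General pluripotency genes had a smaller effect in X-GFP–high cells in 9 of 16 cases and germline genes in 6 of 18, and neither list had a larger one. The medians of the germline genes were 0.57 in X-GFP–high and 1.34 in X-GFP–medium cells. Epithelial and epidermal genes had medians of -1.07 and -1.03 for the former and -2.17 and -2.05 for the latter in X-GFP–high and X-GFP–medium cells, and the difference was called for 2 of 17 and 0 of 12 members. A call that was not made does not show that the effects were equal. Of 14 LIF pathway genes, 1 had a larger and 5 a smaller effect, among the latter Lifr, with -0.85 ± 0.08 (adjusted p = 0.00271). The largest positive differences, X-GFP–high minus X-GFP–medium, were those of Thy1, Grip2, a scaffold protein, and Pak3, a neuronal kinase that is X-linked. For Grip2 and Pak3 the positive difference is a weaker decrease in X-GFP–high cells. In X-GFP–medium cells these genes had log2 fold changes of -1.31, -2.47 and -2.15. In X-GFP–high cells, Grip2 was at 43.3 and 43.8 in the control and 38.8 and 26.6 with IFNγ (log2 fold change -0.43 ± 0.28, adjusted p = 0.284), and Pak3 at 63.9 and 74.7 and 58.3 and 54.3 (log2 fold change -0.29 ± 0.22, adjusted p = 0.354). In the other direction stood the FGF co-receptor Klb and Zscan5b, a zinc finger protein, which had log2 fold changes of 2.36 and 1.59 in X-GFP–medium cells. In X-GFP–high cells Zscan5b was at 105 and 132 and then 104 and 101 (log2 fold change -0.20 ± 0.19, adjusted p = 0.451). Klb went from 99.0 and 95.0 to 161 and 126 (log2 fold change 0.55 ± 0.19, adjusted p = 0.0443), and was not called without control replicate 1 (0.58) or 2 (0.52) or IFNγ-treated replicate 1 (0.37). Leaving out a library moved the 736 to between 155 and 1067 and the 1259 to between 329 and 1530. The lowest counts came without control replicate 2 of the X-GFP–high cells, and similar ones, 156 and 341, without control replicate 1 of the X-GFP–medium cells.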

How the data were processed

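RNA-seq of X-GFP–high, SSEA1-positive cells sorted at day 7 was analysed in 2 IFNγ-treated and 2 control libraries. The study's methods call replicates independent, but no source used here says whether they came from separate rounds of reprogramming, and p-values measure only the spread between these samples. The authors mapped reads with STAR and WASP to mm10 with masked SNPs, counted them on genes with HTSeq 0.6.1, and deposited counts divided by DESeq2 size factors, a signal that is not a raw count. Whether counting used the strand is not given in the sources used here. Of the deposited values, 100% were whole reads after multiplication by the size factor recovered from the steps of each library (tolerance 0.01 reads). The authors also deposited, for each X-linked gene and population, the proportion of allelic expression from X mus, whose pooling and depth are not given in the sources used here.

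Genes with a mean above 10 were fitted with limma 3.58.1 (lmFit, eBayes with trend) in R 4.3.3 on log2(normalized count + 1), with Benjamini-Hochberg adjusted p under 0.1, two-sided. For 1 gene, an exact permutation test of 2 against 2 cannot go below p = 0.33. The difference between the effects in X-GFP–high and X-GFP–medium cells was an interaction term over 8 libraries. Genes were placed with GENCODE vM21 on GRCm38, where 95.2% of the identifiers were found. Alternatives included edgeR 4.0.16 and DESeq2 1.42.0 on the recovered reads, and leaving out each library, where a lone library is assumed to vary like the other group. The fits were also run on simulated data with far fewer changed genes than were called here, and with larger changes than most of these. Such a run cannot give the rate of false calls in these data.

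The comparison and the 28 gene lists, with 465 distinct symbols of which 454 were in the table, were chosen with earlier results of these data known. Named genes were, in each list, up to 2 called genes each way with the largest change, where 1 group averaged 100 or more and the groups' libraries were apart, under the same limits the 6 largest changes each way among all genes with a symbol other than a predicted-gene or RIKEN name and the 3 largest interaction effects each way, and Nanog, Zfp42, Esrrb, Dppa3, Irf1, Gbp2, Stat3, Lifr, Tet1, Dnmt3l, Dnmt3b, Gadd45a, Xist, Cdh1 and Zeb1 in any case. Some genes that the rule names are not reported here. Other genes are said to be chosen after their values were seen.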

Additional observations from a re-analysis of the deposited data

Results flagged for a closer look

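The effect of IFNγ differed between X-GFP–high and X-GFP–medium cells, by limma's test of the difference over 8 libraries, for 736 genes with a larger and 1259 with a smaller log2 effect in X-GFP–high cells. Differences below are the log2 effect in X-GFP–high minus that in X-GFP–medium cells. Among the genes named in the report, it was smaller in X-GFP–high cells for Klb (-1.81), Zscan5b (-1.80), Pdgfra (-1.28), Dppa3 (-0.89), Zeb1 (-0.88), Lifr (-0.85), Dnmt3l (-0.83), Tap1 (-0.81), Dnmt3b (-0.71), Zfp42 (-0.63), Tet1 (-0.61), Dppa2 (-0.55), Esrrb (-0.53), Pdk1 (-0.51), Sox2 (-0.45), Spry2 (-0.44), Peg10 (-0.38), Irf1 (-0.35), Trp53 (-0.32) and Stat3 (-0.28). It was larger for Cdkn1a (0.31), Grhl2 (0.41), Plet1 (0.56), Sox4 (0.74), Lef1 (0.88), Itgb3 (1.01), Spry4 (1.03), Pak3 (1.85), Grip2 (2.04) and Thy1 (2.13). For genes that fell in both populations, such as Cdkn1a, a positive difference is a smaller decrease in X-GFP–high cells. Of these 30 genes, 14 lost the call without at least 1 of the 8 libraries, and 16 kept it without each. Groups of 2 libraries are too small for a test of single libraries that stand apart.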

How the results depend on the processing

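The 2830 genes called higher were 2718 and the 3175 called lower 3291 with edgeR on recovered reads, and all 103 called named genes were called in the same direction. DESeq2 gave 1585 higher and no filter on low values 1664, and leaving out 1 library gave 929 to 3200 higher and 1770 to 3648 lower. Higher genes were 47.1% of the calls, 38.5% with DESeq2. For the interaction, the 736 were 309 with no filter and 155 to 1067 without 1 library, and the 1259 were 695 with DESeq2, 560 in a fit of all 24 libraries, 588 with no filter and 329 to 1530 without 1 library. Between the X-GFP–high groups the replicate differences were not correlated (r = 0.024 over 15598 genes). With 1 replicate difference a group, this cannot decide whether libraries of the same number came from the same round. With the replicate block, 3171 genes were higher and 3423 lower, and the interaction gave 1166 and 1912. Within 1 treatment, replicate differences of X-GFP–high and X-GFP–medium cells had r = 0.104 in the control and 0.307 with IFNγ. Between the treatments, in X-GFP–medium cells, r was 0.0995. A replicate block within each treatment, added after seeing the data, gave 1923 and 2843 for the interaction. No interaction call of a named gene was lost with it.

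Of genes higher at day 2, the 54 called higher were 35 with DESeq2, 33 at a mean above 100, 32 with a list at a log2 fold change of 2 or more, and 30 to 57 without 1 library, and the 37 called lower were 23, at a mean above 100, 11 with that list and 24 to 42. Of genes lower at day 2, the 9 called higher were 5 with DESeq2, 4 in the fit of 24 libraries, 0 with that list and 5 to 10, and the 20 called lower were 11 at a mean above 100, 0 with that list and 15 to 19. Of genes higher in ESCs, the 1177 called higher were 747 with no filter, 316 with that list and 474 to 1257, and the 10 called lower were 6 with DESeq2 and with 24 libraries, 5 with no filter, 16 with the replicate block, 4 with that list and 3 to 24. Of genes lower in ESCs, the 106 called higher were 59 with DESeq2, 68 with 24 libraries, 70 at a mean above 100, 56 with no filter, 40 with that list and 63 to 159, and the 1925 called lower were 1100 with that list. The 187 higher X-linked genes were 112 with DESeq2, 111 with no filter and 77 to 197 without 1 library, and the 68 lower ones 32 to 73. The X mus difference of 0.0586 was 0.0614 as a mean over genes, 0.0590 at a mean of 100 or more and, added after seeing the data, 0.0589 without Xist. The log2 fold change of Stat3, -0.025, went from -0.080 to 0.029 without 1 library and reversed without IFNγ-treated replicate 2. Of the 103 called named genes, 82 were still called without control replicate 1 and 84 in the fit of 24 libraries, the lowest counts of the alternatives run. A list at a higher fold holds fewer genes. Of those higher at day 2 by a log2 fold change of 2 or more, 87 were tested, with 36.8% higher and 12.6% lower. For those lower at day 2, 0 were tested. Of those higher in ESCs, 571 were tested, with 55.3% higher and 0.701% lower. Of those lower in ESCs, 1527 were tested, with 2.62% higher and 72.0% lower. Otherwise the cause of these shifts was not tested.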
